A study of Mus musculus with 3 samples.

Results

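The transcripts of 10 genes of the Notch pathway were followed in an RNA immunoprecipitation of YTHDF2 from mouse embryonic stem cells (ESCs). They were the 4 receptors Notch1, Notch2, Notch3 and Notch4, the 4 ligands Jag1, Jag2, Dll1 and Dll3, the DNA-binding factor Rbpj and the target gene Hes1. The genes were taken by symbol from a table of 49997 genes, of which 19601 passed a filter on low counts, all 10 members among them. YTHDF2 recognises N6-methyladenosine (m6A) on RNA and directs the marked transcripts to degradation. RIP-seq reads out the RNA recovered with an antibody against such a protein, here set against an input library.

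Notch receptors are single-pass membrane proteins that are activated by ligands of the Jagged and Delta-like families on a neighbouring cell. Binding is followed by cleavage outside the membrane by an ADAM protease and within it by gamma-secretase, and the freed intracellular domain enters the nucleus, joins RBPJ and a Mastermind-like coactivator and switches on genes of the Hes and Hey families. In ESCs the pathway is known for its part in the exit from pluripotency toward neural and other fates, and Notch1 mRNA is a known m6A-dependent target of YTHDF2 in development.

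All 3 libraries came from E14 mouse ESCs treated with doxycycline (Dox) for 24 h. In the cell system of the study, Dox induces a Dux transgene in a stable reporter line and part of the cells take on features of the early cleavage embryo. There was 1 input library and 2 libraries made with anti-YTHDF2, called IP replicates 1 and 2, and the transgene and the Dox treatment were common to all of them. Below, values before the IP are those of the input, and values after it are those of IP replicates 1 and 2 in this order. Libraries from cells without Dox, or from an IP with a control antibody, were not analysed here, so that recovery below means recovery relative to the input. The total count was 36986994 for the input, 35259827 for IP replicate 1 and 35888743 for IP replicate 2. The labels do not say whether the IP replicates came from separate cultures, and the input had no replicate. The spread behind the p-values of the main test is therefore that between the 2 IP libraries, which may be technical. For each gene this spread was borrowed in part from all tested genes, so a p-value does not measure the spread of that gene alone. The 8 ESC markers lay between 301 and 5800 TPM, a level corrected for transcript length, in the input, while of 5 fibroblast markers Thy1 alone was over 1 TPM, at 31.9 TPM before the IP and 17.4 and 18.6 TPM after it, and Col3a1 and Dcn were at 0 in every library. The 5 fibroblast markers summed to 32.7 TPM before the IP and 18 and 19.3 TPM after it.

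GGACT is a common core of the m6A consensus, and m6A is known to gather near stop codons. For each member the GGACT nearest to the stop codon of its RefSeq mRNA is given as 29 bases of the sense strand, because its distance from the stop differed between the members (build GRCm38.p6, capitals mark GGACT).
Notch1, chr2:26458905-26458933 on the minus strand, 613 bases after the stop: aaccaccagtgtGGACTtgaagaagtgtc
Notch2, chr3:98147815-98147843 on the plus strand, 386 bases after the stop: ctgagtgccccgGGACTctgtccaggctg
Notch3, chr17:32121328-32121356 on the minus strand, 479 bases after the stop: tttggccaatccGGACTctgtgtactgag
Notch4, chr17:34588023-34588051 on the plus strand, 53 bases after the stop: ctggaagactccGGACTtttaaggccaaa
Jag1, chr2:137082072-137082100 on the minus strand, 939 bases after the stop: gacacattttaaGGACTgactgaggcaga
Jag2, chr12:112909026-112909054 on the minus strand, in coding sequence at position -150 from the stop: ccgtggagatggGGACTccccagaggcag
Dll1, chr17:15367913-15367941 on the minus strand, 104 bases after the stop: gaggaaacccagGGACTgctgctgagaac
Dll3, chr7:28294427-28294455 on the minus strand, in coding sequence at position -187 from the stop: gccaggataccgGGACTcgcctgctttct
Hes1, chr16:30067386-30067414 on the plus strand, in coding sequence at position -27 from the stop: ctcgctcacttcGGACTccatgtggagac
Rbpj, chr5:53653626-53653654 on the plus strand, 21 bases after the stop: gtctttttgctgGGACTgaaactgacttg

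Within a window of 400 bases centred on the stop codon, 6 of the 10 mRNAs held GGACT (Notch4, Jag2, Dll1, Dll3, Hes1 and Rbpj), and Notch1, Notch2, Notch3 and Jag1 did not. The search covered the spliced sense strand alone, and 39.8% of 15014 tested mRNAs held the letters in the same window. A match is a description of the letters and no measured m6A site.

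The members did not move as a group. Against the input, Notch4 was enriched in the YTHDF2 IP and Notch3 was depleted, where a call needed more than 2-fold and an adjusted p below 0.05 in edgeR's quasi-likelihood test across 19601 genes. Over all tested genes 15.0% were enriched and 13.0% depleted by this rule, so 1 enriched and 1 depleted of 10 members lay near the background. Without the fold requirement 3 members were higher (Notch4, Hes1 and Jag2) and 3 were lower (Notch3, Notch1 and Rbpj), beside 28.4% of all genes higher and 28.9% lower. The median log2 fold change was -0.13 over the members and 0.01 over all genes.

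**Figure D1:**
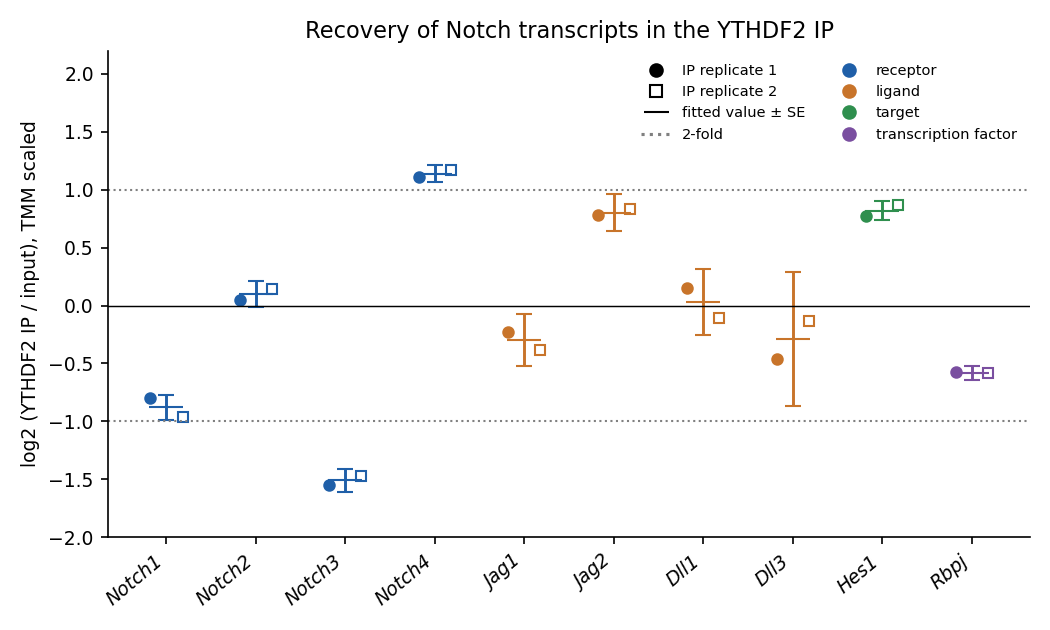
Log2 ratio of YTHDF2 IP to input for each of the 10 Notch genes, with IP replicate 1 as filled circles, IP replicate 2 as open squares, and the fitted value ± SE as a bar. Notch4 lies above the dotted line at 2-fold, with ratios of 1.11 and 1.17, and Notch3 lies below it, with -1.55 and -1.47.

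Before removal of any trend, the 4 receptors, which are paralogs of one another, spread from the highest to the lowest recovery of all members. Notch4, a receptor best known from vascular endothelium, was counted 2327 times before the IP and 5109 and 5439 times after it. Both IP libraries were above the input, and the fitted log2 fold change was 1.14 ± 0.073 (SE, 2 IP libraries against 1 input), a 2.2-fold enrichment with an adjusted p of 1.93e-16 in edgeR. The value was above that of 82.3% of tested genes. Removal of a trend of the log ratios on GC content left 0.47, with an adjusted p of 2.66e-06, which was still above the input but short of 2-fold. Under a fit with the dispersion fixed at 0.1 the adjusted p was 0.174, and Notch3 was the only member with an adjusted p below 0.05 in that fit. Tek was the only one of 4 endothelial markers over 1 TPM in the input, at 15.3 TPM, and the summed level of the 4 was 16.6 TPM before the IP and 16.9 and 16.7 TPM after it. Notch4 is annotated at chr17:34564286-34588543 and on 3 alternate sequences, and reads that map to several of these would be left out of the counts, so its level may be understated.

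Notch3, a receptor known for its part in vascular smooth muscle (chr17:32120820-32166896), went the other way. It was counted 2706 times before the IP and 944 and 1008 times after it. Both IP libraries were far below the input, and the fitted value was -1.51 ± 0.096, a 2.85-fold depletion with an adjusted p of 1.57e-16. Only 8.61% of tested genes had a lower value. The depletion passed the threshold in every alternative that gave a test, with fitted values from -2.04 to -1.3, and its adjusted p was 0.0375 at the fixed dispersion.

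Notch1, the receptor with the broadest roles in development (chr2:26457902-26503822), was counted 1567 times before the IP and 917 and 834 times after it. Both IP libraries were below the input, and the fitted value of -0.88 ± 0.111 corresponded to a 1.84-fold decrease, with an adjusted p of 1.12e-08. It stayed short of the fold requirement. Once the GC trend was removed, it was -1.24 and met the call for depletion.

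Notch2 (chr3:98013538-98150367), a close relative of Notch1, did not pass the test. It was counted 1196 times before the IP and 1262 and 1365 times after it. The IP libraries were slightly above the input, but the fitted value was 0.10 ± 0.109, with an adjusted p of 0.479, and it turned to -0.09 when the GC trend was removed.

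The gap between receptors is free of library scaling, since both members of a pair are measured in the same library. Relative to the input, Notch3 was lower than Notch4 by 6.28-fold in IP replicate 1 and by 6.28-fold in IP replicate 2. Notch1 was lower than Notch4 by 3.76-fold and 4.38-fold, and Notch2 by 2.08-fold and 2.04-fold. Of the 6 pairs of receptors, the smallest gap was that of Notch1 and Notch3, with log2 differences of 0.75 and 0.51. These gaps are descriptions of single libraries and were not tested.

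The make-up of the receptor pool also differed between input and IP. In TPM, Notch4 made up 35.5% of receptor transcripts before the IP and 68.8% and 69.6% after it. Notch3 made up 34.6% of the pool before the IP and 10.7% and 10.8% after it, and Notch1 17.7% in the input and 9.13% and 7.89%. The share of Notch2 was 12.2% before the IP and 11.4% and 11.7% after it. The levels of the 4 receptors summed to 52.0 TPM before the IP and 64.1 TPM and 66.1 TPM after it.

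**Figure D2:**
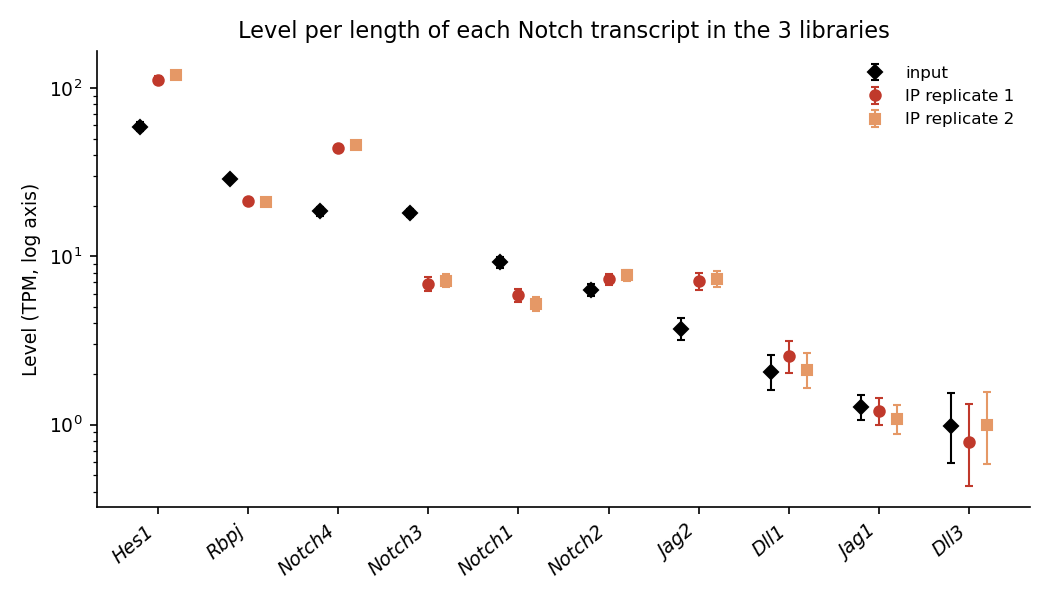
Level in TPM on a log axis for each member in the input (black diamonds), IP replicate 1 (circles) and IP replicate 2 (squares), ordered by the input, with 95% intervals that cover counting error alone. Notch4 and Notch3 started at 18.5 and 18 TPM in the input and separated to 44.1 and 46.0 TPM for Notch4 against 6.84 and 7.16 TPM for Notch3.

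The ligands were rarer than the receptors, with levels that summed to 8.02 TPM before the IP and 11.6 TPM and 11.5 TPM after it, and none met the call for enrichment or depletion in edgeR, with 1 higher and 0 lower of 4 at any fold. Over all tested genes the shares were 15.0% enriched, 13.0% depleted, 28.4% higher and 28.9% lower. Jag2 (chr12:112907803-112929812), 1 of the 2 Jagged ligands, was the most abundant of them. It was counted 351 times before the IP and 614 and 646 times after it. Both IP libraries were above the input, and the fitted value of 0.80 ± 0.159 was a 1.75-fold increase with an adjusted p of 3.61e-05. The value moved with the processing. Removal of the GC trend left 0.02 with an adjusted p of 0.909, and removal of a trend on exon density gave 1.11 and a call for enrichment.

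Jag1 (chr2:137081451-137116520), the other Jagged ligand, was counted 267 times before the IP and 232 and 213 times after it. Its fitted value was -0.30 ± 0.225, with an adjusted p of 0.262. Jag1 was lower than Jag2 relative to the input by 2.01-fold in IP replicate 1 and 2.3-fold in IP replicate 2.

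Dll1 (chr17:15367354-15376932), a Delta-like ligand that activates Notch on neighbouring cells, was counted 148 times before the IP and 168 and 142 times after it. The IP libraries fell on either side of the input, and the fitted value was 0.03 ± 0.285 with an adjusted p of 0.945. It turned to -0.23 once the GC trend was removed. Dll3 (chr7:28293555-28301785), a divergent ligand known to act within the cell during somite formation, was the rarest member. Its counts were 38 before the IP and 28 and 36 after it, and the fitted value of -0.29 ± 0.579 had an adjusted p of 0.701. Removal of the GC trend took it to -1.13, past 2-fold, with an adjusted p of 0.0951. At this depth a change of Dll3 or Dll1 below the size of these errors was not detectable.

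Hes1 (chr16:30065357-30067796), a repressor of the basic helix-loop-helix family and a classical Notch target, was the most abundant member. It was counted 1829 times before the IP and 3185 and 3469 times after it, which came to 58.9 TPM, 112 TPM and 119 TPM. Both IP libraries were above the input, and the fitted value was 0.82 ± 0.082, a 1.77-fold increase with an adjusted p of 3.44e-11. It stayed between 0.7 and 0.97 over all alternatives and so below the fold requirement in each.

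Rbpj (chr5:53555779-53657445) encodes the DNA-binding protein through which all 4 receptors act. It was counted 9000 times before the IP and 6167 and 6219 times after it. Both IP libraries were below the input by a similar amount, and the fitted value of -0.58 ± 0.059 was a 1.49-fold decrease with an adjusted p of 5.76e-11. After removal of the GC trend it was 0.01, with an adjusted p of 0.929. The pseudogene Rbpj-ps3 was counted 85 times before the IP and 8 and 10 times after it. Reads shared by such copies are left out of the counts of both. Relative to the input, Hes1 exceeded Rbpj by 2.55-fold in IP replicate 1 and by 2.75-fold in IP replicate 2.

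By level in the input the order was Hes1, Rbpj, Notch4, Notch3, Notch1, Notch2, Jag2, Dll1, Jag1 and Dll3, and the counting intervals of neighbours overlapped for Notch4 and Notch3 and for Jag1 and Dll3. By recovery the order was Notch4, Hes1, Jag2, Notch2, Dll1, Dll3, Jag1, Rbpj, Notch1 and Notch3. After removal of the GC trend Hes1, at 0.7, stood above Notch4, at 0.47. In the first order by recovery, the ranges of the 2 IP libraries overlapped for Hes1 and Jag2, for Notch2 and Dll1, and for Dll3 and Jag1. These neighbours were not told apart. The ranges leave out the counting error of the input, so a lack of overlap does not by itself separate neighbours. Dll1 at 0.03 ± 0.285 and Dll3 at -0.29 ± 0.579 had no overlap but lay within their errors.

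**Figure D3:**
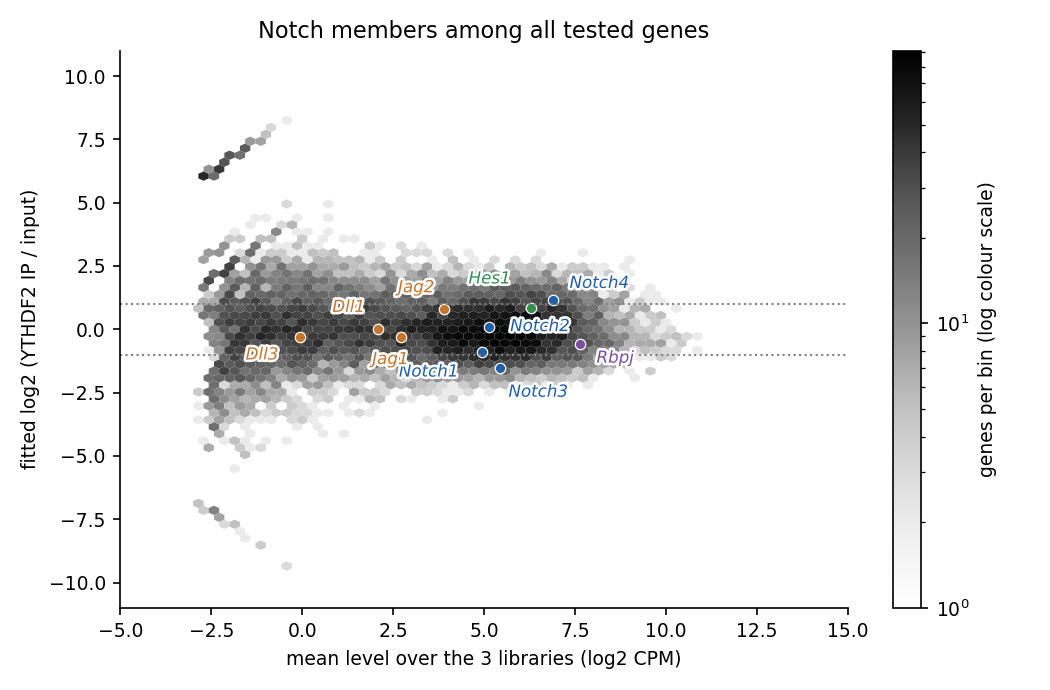
Fitted log2 ratio of YTHDF2 IP to input against mean level in log2 CPM for all 19601 tested genes, binned in grey, with the 10 Notch genes in colour by role. The members lie within the bulk of genes of like level, with Notch4 above and Notch3 below the dotted lines at 2-fold, and the diagonal streaks at the left are genes with very few counts.

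The members also differed in sequence features that the choice of genes did not use. Exonic GC content ran from 41.9% for Rbpj to 62.9% for Dll3, beside a median of 50.5% over all tested mRNAs, 54.2% over enriched mRNAs and 45.4% over depleted mRNAs. Notch3 and Notch4 were close in this feature, at 59.2% and 60.8%, and above 93.0% and 96.5% of tested mRNAs. Their recovery was on opposite sides of the input, and whether GC content had a part in the recovery of any member was not tested.

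Of the 6 members with GGACT near the stop codon, 1 was enriched and 0 were depleted. Of the 4 without it, 0 were enriched and Notch3 was depleted. Over all tested genes 15.0% were enriched and 13.0% depleted. Among all tested mRNAs the motif stood in this window in 46.6% of 2304 enriched and 31.4% of 1868 depleted mRNAs. GGACT density over the exons ran from 0.687 per kb in Rbpj to 1.71 per kb in Notch4, beside a median of 1.06 per kb over all tested mRNAs. Notch3 was depleted at a GGACT density of 1.2 per kb, and Hes1 had a positive ratio at 1.16 per kb. For the wider motif of GGAC followed by A, C or T, Notch3 held 4.91 per kb and Hes1 3.47 per kb. The median over all tested mRNAs was 3.6 per kb for that motif. Whether motif density had a part in the recovery of any member was not tested.

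**Figure D4:**
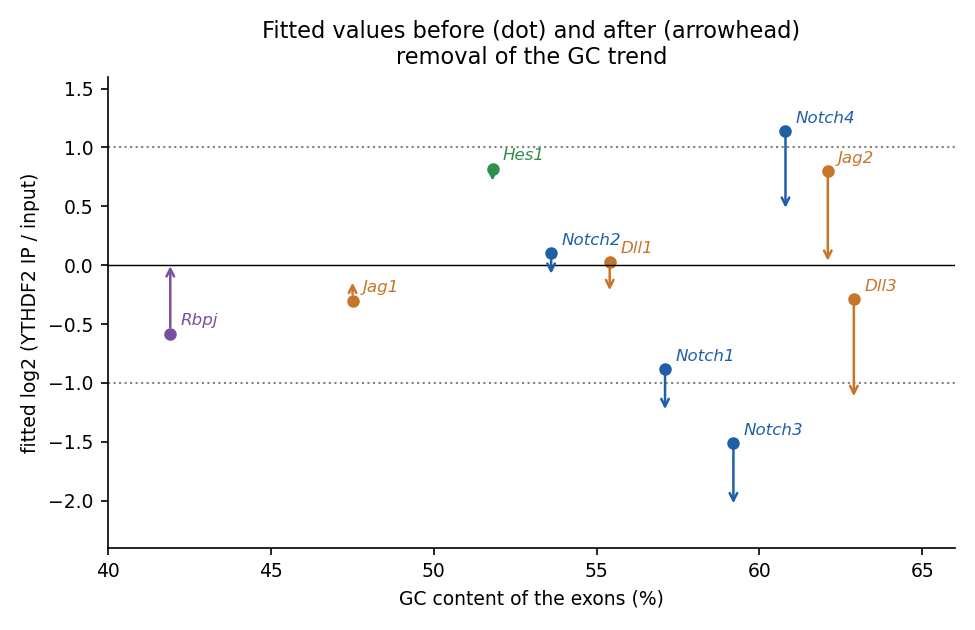
Fitted log2 ratio of YTHDF2 IP to input against exonic GC content in percent for the 10 members, with dots for the values as reported and arrowheads for the values after removal of the GC trend. Notch4 falls from 1.14 to 0.47 and Jag2 from 0.80 to 0.02, Rbpj rises from -0.58 to 0.01, and Notch3 falls further to -2.04.

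Beyond the members, 58 other genes of the pathway were examined in 7 groups by role, of which 54 were tested. By the same rule 8 of the 54 were enriched, near the share of 15.0% over all tested genes. Depleted genes numbered 4 of the 54, a smaller share than the 13.0% over all tested genes. The enriched genes numbered 5 after removal of the GC trend, 2 at the fixed dispersion, 12 under TPM scaling and 12 under total count scaling. Regardless of fold 26 of the 54 were higher, a larger share than the 28.4% of all tested genes. Another 13 of the 54 were lower, beside 28.9% of all tested genes. The median log2 fold change of the 54 was 0.48, beside 0.01 over all genes. These differences from the background were not tested. Dll4, Hes5, Hes7 and Heyl had too few counts. The ligand Dll4 was counted 0 times before the IP and 6 and 0 times after it, and the target Hes5 had 2 counts before and 0 and 2 after.

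Genes that modify and cleave the receptors had the highest median of the groups with more than 4 tested genes, at 0.84, with 3 of 8 enriched and 0 depleted by edgeR, and 6 higher and 1 lower at any fold. Over all tested genes 15.0% were enriched, 13.0% depleted, 28.4% higher and 28.9% lower, and with 8 genes in the group its difference from these shares was not tested. Rfng, 1 of the Fringe enzymes that extend O-linked fucose on Notch, went from 957 counts before the IP to 2569 and 2805 after it, for a fitted value of 1.45 ± 0.097. Its relative Mfng was enriched at 1.18 ± 0.312 with an adjusted p of 1.37e-03, while Lfng had 12 counts before and 11 and 18 after, and a fitted value of 0.23 ± 1.088. The glucosyltransferase gene Poglut1 was enriched at 1.42 ± 0.063. Pofut1, the enzyme that adds the fucose, went from 1891 counts to 3865 and 3840, and its 1.98-fold increase lay just under the fold requirement.

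The 2 ADAM proteases that cut the receptor outside the membrane differed in direction. Adam10 was lower in the IP at -0.73 ± 0.091, with an adjusted p of 9.99e-09. Adam17 was higher at 0.47 ± 0.079, with an adjusted p of 3.04e-06. Of the 7 gamma-secretase genes none was called enriched or depleted by edgeR, 2 were lower at any fold, and the group median was 0.05. Over all tested genes 15.0% were enriched, 13.0% depleted and 28.9% lower. Psen2, a catalytic subunit, was at -0.31 ± 0.206 with an adjusted p of 0.211. Ncstn, which encodes the subunit nicastrin, was lower at -0.54 ± 0.081, with an adjusted p of 3.08e-07.

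Among 13 genes of ubiquitination and endocytosis, 2 were enriched and 2 were depleted, beside 15.0% and 13.0% of all tested genes. At any fold 7 were higher and 3 lower, beside 28.4% and 28.9%, and the group median was 0.63. Fbxw7, which marks the Notch intracellular domain for degradation, was enriched at 1.43 ± 0.072, from 2158 counts before the IP to 6049 and 5878 after it. Dtx2, of the Deltex family, was enriched at 1.42 ± 0.084. Numb, an adaptor that antagonises Notch, was depleted at -1.95 ± 0.165, from 853 counts before the IP to 202 and 252 after it, and the ubiquitin ligase gene Itch was depleted at -1.04 ± 0.091. Numb overlaps other annotated genes, whose shared reads do not enter its count. Mib1, the ligase that promotes endocytosis of the ligands, was lower at -0.86 ± 0.092 without meeting the fold requirement.

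In the nucleus, 2 of 8 coactivators were enriched and 0 depleted by edgeR, with 5 higher and 2 lower at any fold. Of 12 corepressors 0 were enriched and 2 depleted, with 5 higher and 5 lower at any fold. The shares over all tested genes were 15.0% enriched and 13.0% depleted, and 28.4% higher and 28.9% lower. Kat2a, a histone acetyltransferase, was enriched at 1.16 ± 0.059, and its paralog Kat2b was lower at -0.83 ± 0.082. Maml3 had the highest value of all 54 genes, 2.51 ± 0.633, on 10 counts before the IP and 50 and 68 after it. Maml1, a more abundant Mastermind-like coactivator, was higher at 0.58 ± 0.088.

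Hdac1, a histone deacetylase, had the lowest value, -2.28 ± 0.065, from 9705 counts before the IP to 1974 and 2133 after it. It is annotated on 2 sequences, and reads shared between such copies would be left out of the counts. Ncor1, a corepressor scaffold, was depleted at -1.65 ± 0.072. Spen, a corepressor that binds RBPJ, was at 0.16 ± 0.078 with an adjusted p of 8.12e-02, and Tle1, of the Groucho family, was higher at 0.82 ± 0.079.

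The ligand-like gene Dlk1 was counted 187 times before the IP and 188 and 116 times after it, and its fitted value was -0.34 ± 0.288. Of 4 target genes tested, Hes6 was enriched at 1.69 ± 0.168, from 220 counts before the IP to 698 and 765 after it. Nrarp, a feedback inhibitor of the pathway, was higher at 0.59 ± 0.219 with an adjusted p of 2.05e-02. Hey1 was at 0.27 ± 0.333 with an adjusted p of 0.519.

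**Figure D5:**
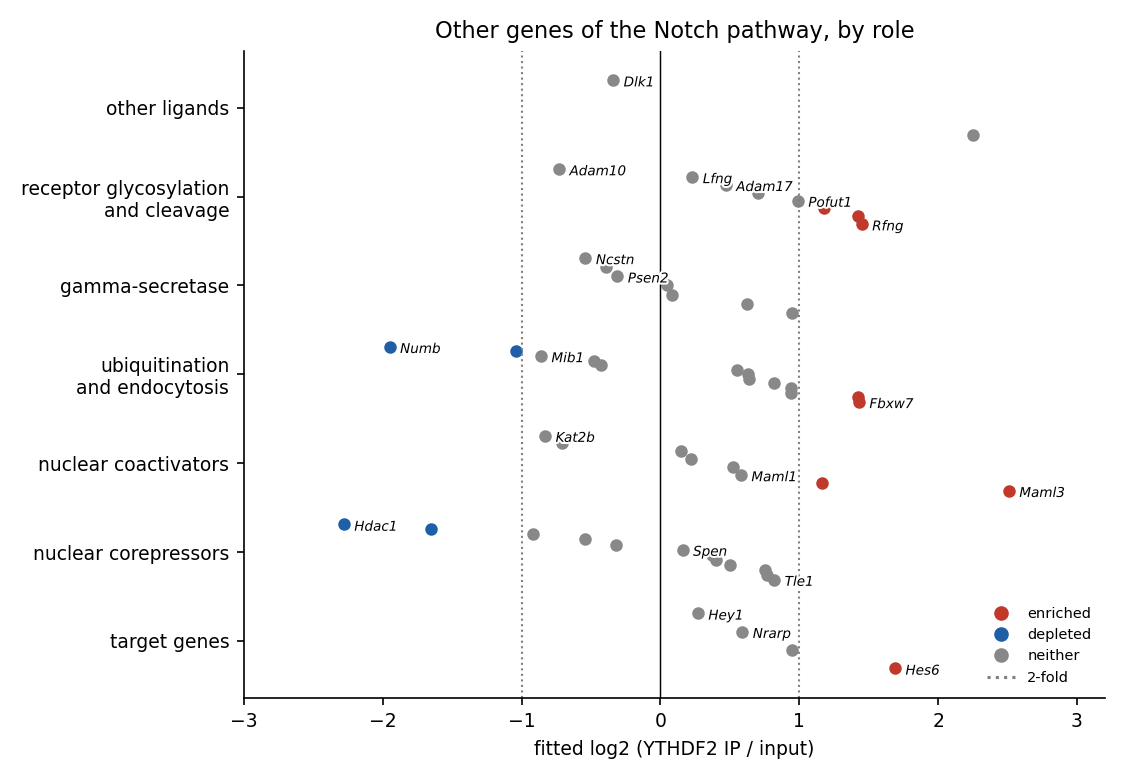
Fitted log2 ratio of YTHDF2 IP to input for the 54 tested genes of the Notch pathway outside the members, 1 dot per gene in 7 groups by role, with some of the genes labelled, enriched genes in red, depleted genes in blue and all others in grey. Enriched genes lie right of the dotted line at 2-fold, among them Rfng, Fbxw7, Maml3 and Hes6, and the 4 depleted genes Numb, Itch, Ncor1 and Hdac1 lie left of the other one.

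Markers of other lineages were low but not all absent. Of 4 neuroectoderm markers 3 were over 1 TPM in each library, and their levels summed to 7.97 TPM before the IP and 22.2 and 20.2 TPM after it, mostly from Sox1 at 5.16, 19.3 and 17.3 TPM. The 4 trophectoderm markers summed to 14.2 TPM before the IP and 31.7 and 30.7 TPM after it, nearly all from Eomes, while Elf5 was at 0 in the input. The 4 primitive endoderm markers summed to 5.19, 9.33 and 6.74 TPM in the same order. Their part in the values of the Notch genes was not tested.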

How the data were processed

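RIP-seq libraries of Dox-treated E14 mouse ESCs were grouped by their titles into 1 input and 2 YTHDF2 IP libraries. The methods of the study describe an IP from cleared lysate, whereas the labels describe Trizol-extracted RNA used in the IP. The deposited values were raw counts per gene, which the authors made by alignment to mm10 with HISAT2 2.2.1 and counting of RefSeq exons with featureCounts 2.0.3. The submitters' processing notes also name fastp 0.19.4 and DESeq2 1.40.2. Per the file headers, mates were counted separately and strand was not used, and by the defaults of the tool multi-mapped and multi-gene reads were left out. Even numbers made up 61.4% to 64.7% of counts from 1 to 100, as pairs of mates give, so counting noise is larger than the counts imply. 

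Genes were filtered with filterByExpr (19601 left), scaled by TMM and tested in R 4.3.3 with edgeR 4.0.16 by the robust quasi-likelihood F test with Benjamini-Hochberg adjustment over all tested genes, on 1 residual degree of freedom. The common dispersion was estimated at 0.00538, that is, a variation of 7.33% from one IP library to the other. Calls needed an adjusted p below 0.05 and more than 2-fold. Each SE was derived from the test, as the absolute log2 fold change divided by the square root of the F statistic. DESeq2 gave larger SEs for every member, among them 0.1 for Notch4, 0.152 for Notch3 and 0.182 for Notch1. Ratios of single libraries used 0.5 added counts. TPM used exonic lengths on the main chromosomes, since the deposited length of Notch4 (26823) sums 4 sequences, against 7014 on chromosome 17. Intervals are 95% Poisson limits that cover counting error only. They were computed on halved counts, with a pair of read ends taken as a single fragment, and scaled back to TPM. The floor was 3 counts. The GC and exon density trends were lowess fits to each library's log ratios. Alternatives were total count and TPM scaling, DESeq2 1.42.0, no filter, a fixed dispersion, halved counts, removal of either trend, no mitochondrial genes, each IP library left out, and any fold change. The test was checked on simulated data.

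The members and lists were chosen with earlier results of these data known. All 10 members were named, with 16 other genes chosen by role (1 of them is not reported here) and the highest and lowest of each list with a mean of at least 1 CPM. Rbpj-ps3, Poglut1, Mfng, Itch, Dtx2, Kat2a and Ncor1, called outside this rule, and Sox1, Eomes, Tek, Thy1, Elf5, Col3a1 and Dcn were named after their values were seen.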

Additional observations from a re-analysis of the deposited data

How the results depend on the processing

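The members were recomputed under 12 alternatives each. Jag1, Dll3, Hes1 and Notch3 kept their direction and their side of the threshold in all of them, although Dll3 went to -1.13 without the GC trend. Removal of the GC trend turned Notch2 to -0.09, Dll1 to -0.23 and Rbpj to 0.01, took Notch4 to 0.47 and left 0 members enriched and 2 depleted, beside 2765 and 2046 of all 19601 tested genes. Removal of the exon density trend left 2 members enriched, and a dispersion fixed at 0.1 left 0, with adjusted p-values of 0.273 for Notch1, 0.365 for Jag2, 0.347 for Hes1 and 0.505 for Rbpj. The cause of these moves was not tested. At any fold change 3 members were higher and 3 lower. Among all genes the fixed dispersion gave 1577 enriched and 1531 depleted, and any fold change gave 5557 and 5660. Among the other pathway genes the GC trend left 5 enriched and the fixed dispersion 2, either scaling gave 12, leaving out 1 IP library gave 9 to 11, and any fold change gave 26 higher and 13 lower. Scaling to TPM shifted the median of all genes by 0.148 and scaling to total counts by 0.0959. With 1 IP library left out there was no residual degree of freedom, so values past 2-fold were counted without a test, which gave 3964 to 4062 enriched and 3700 to 3727 depleted genes. Leaving out the robust option, an alternative added after seeing the data, gave 2966 and 2570 instead of 2936 and 2543. No paired analysis was possible because the input library was not numbered and had no partner. Depth limits Dll3 and Dll1 most, and the spread of the input was not measured.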
